A study of Mus musculus with 12 samples.

Results

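Nfkbiz, Nfkbia and Tnfaip3 encode regulators that NF-kappa-B signalling induces and that act back on it. They were measured by 10 probe sets of 20523, taken as every probe set whose platform annotation names 1 of these symbols and no other gene, and they are 3 of 11015 genes. Nfkbiz has 3 probe sets, Nfkbia has 5 and Tnfaip3 has 2. The genes were chosen by measured values of the same arrays, above all a low Nfkbiz signal in Ets2KO cells against WT cells, so that contrast is described here without a test.

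The arrays profile endothelial cells that were grown out of the aorta of 4-week-old mice and infected with a lentivirus in culture. The arrays labelled DKO come from Ets1-/-; Ets2fl/fl cells given a virus that carries eGFP and Cre, the recombinase that cuts out floxed Ets2. Ets2KO cells were Ets1+/+; Ets2fl/fl and received the same Cre virus. Ets1KO cells were Ets1-/-; Ets2fl/fl and received the eGFP virus without Cre, and WT cells were Ets1+/+; Ets2+/+ with that eGFP virus. All groups thus carry eGFP, and Ets2 loss comes with Cre in both groups that have it, so the effects of Cre and of Ets2 loss cannot be told apart. The Ets1KO and Ets2KO samples are called wild type in their short descriptions, and their titles and genotypes were followed. Each group has 3 columns of values. One of the DKO columns, the third, averages its companions and was left out, which leaves 2 arrays labelled DKO and 3 in each other group. Biological replication is stated in the titles, but no label ties the arrays to separate animals. The sex-linked signals given below set WT replicate 1 apart from the other WT arrays, so the WT arrays do not all come from the same animal. In the other groups the spread may be technical alone, and the p-values may measure technical spread in part.

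NF-kappa-B is a family of dimeric transcription factors held in the cytoplasm by IkappaB proteins until cytokines such as tumour necrosis factor activate the IkappaB kinases. Nfkbia encodes IkappaB-alpha, which is degraded on activation, is resynthesised as an NF-kappa-B target and carries the factor back out of the nucleus. Tnfaip3 encodes A20, a ubiquitin-editing enzyme that shuts off signalling upstream of the kinases. Nfkbiz encodes IkappaB-zeta, an atypical nuclear member of the family that binds NF-kappa-B on chromatin and is needed for a subset of secondary response genes. In endothelium the pathway drives leukocyte adhesion molecules and chemokines.

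The promoter windows of Nfkbia and Tnfaip3 are shown because both genes are textbook NF-kappa-B targets whose signal moved in these arrays. They run from 250 bases before to 50 after the start site on the gene's own strand, from RefSeq on GRCm38.p6, and 2 of the 3 members matched the table. Capitals mark matches to the NF-kappa-B consensus decamer, searched on both strands with overlapping matches at 1 position counted once. The Nfkbia window lies at chr12:55492598-55492897 on the minus strand and the window of the upstream Tnfaip3 start site at chr10:19015361-19015660 on the minus strand.
Nfkbia: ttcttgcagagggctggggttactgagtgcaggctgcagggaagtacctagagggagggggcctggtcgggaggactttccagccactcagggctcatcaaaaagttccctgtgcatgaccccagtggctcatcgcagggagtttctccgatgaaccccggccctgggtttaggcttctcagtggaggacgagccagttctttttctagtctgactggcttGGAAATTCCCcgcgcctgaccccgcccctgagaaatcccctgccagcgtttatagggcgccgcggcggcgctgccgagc
Tnfaip3: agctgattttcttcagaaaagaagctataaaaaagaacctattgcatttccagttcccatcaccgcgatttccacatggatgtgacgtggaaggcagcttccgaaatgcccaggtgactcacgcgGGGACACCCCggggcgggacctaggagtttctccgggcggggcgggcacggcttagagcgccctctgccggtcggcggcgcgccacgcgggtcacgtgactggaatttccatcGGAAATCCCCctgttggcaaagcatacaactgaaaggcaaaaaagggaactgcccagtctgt
The Nfkbia window holds 1 match, GGAAATTCCC, at positions -29 to -20 from the start site. The Tnfaip3 window holds 2, GGGACACCCC at -125 to -116 and GGAAATCCCC at -12 to -3. The window of the second annotated Tnfaip3 start site, chr10:19011914-19012213, holds 0. At least 1 match is found in 8.46% of 32851 mouse promoter windows of this length and 2 or more in 1.22%. The ETS core CCGGAA, searched on both strands, has 0 matches in the 3 windows and is found in 14.9% of all windows. A match of letters is a description and not a bound site.

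Values are log2 signals per probe set, and those written as relative to the array median have the median of all probe sets of that array subtracted. Both scales are needed because the array medians of DKO, at 8.29 and 8.30, lie below those of the other groups, at 9.05 to 9.15. After the median is subtracted, the median difference of all probe sets between the arrays labelled DKO and Ets1KO is still 0.22, and as deposited it is -0.63. The labels were checked on the targeted transcripts. Ets1, by its brightest probe set, averaged 10.16 in the arrays labelled DKO, although their genotype is Ets1-/-, against 8.74 in Ets1KO cells (difference 2.26 relative to array medians, 1.41 as deposited, limma adjusted p = 0.000344 on the first scale). Of its other 3 probe sets, 2 were also above Ets1KO on both scales (2.04 and 1.20 for one, 0.93 and 0.09 for the other), and the last gave -0.65 and -1.497. In WT cells the brightest Ets1 probe set averaged 10.05. There the arrays labelled DKO differed from WT by 0.90 relative to array medians and 0.10 as deposited (limma adjusted p = 0.0235 on the first scale). The other 3 differed from WT by 0.78, 0.18 and -1.20 relative to array medians, and all lay below 0 as deposited. Ets1KO cells differed from WT cells by -1.36 at the brightest probe set (limma adjusted p = 0.193). Ets2 averaged 9.70 in Ets2KO cells against 10.14 in WT cells (difference -0.42, adjusted p = 0.554). In the arrays labelled DKO, Ets2 averaged 10.33, against 10.40 in Ets1KO cells (difference 0.77 relative to array medians and -0.07 as deposited, adjusted p = 0.174 on the first scale) and 10.14 in WT cells (0.98 and 0.18). Relative to array medians, no fall of the Ets2 signal was thus measured in the comparison of Cre and Ets2 loss in cells that lack Ets1. The second Ets2 probe set gave 0.65 there and -0.20 as deposited (limma adjusted p = 0.15 on the first scale). As deposited both Ets2 values lay below 0, where the median difference of all probe sets was -0.63. No source used here places the deleted parts relative to these probe sets. The check leaves the genotype of the arrays labelled DKO unsettled, and every direction below is that of the labels. The X-linked Xist and Y-linked Eif2s3y signals put all 3 Ets2KO arrays and WT replicate 1 in a male-like class and the other 7 arrays in a female-like one, so the arrays labelled DKO and the Ets1KO arrays share a class. Of 16 endothelial markers 5 are among the genes measured. Kdr, the main VEGF receptor, lay below the array median in all 11 arrays, at -2.04 to -1.45 relative to it, and the other 4 lay on both sides, among them Eng at -0.90 to 1.77 and Cd34 at -2.86 to 3.62. Of 8 fibroblast markers measured, 4 lay above the array median in all arrays (Col1a1, Col1a2, Col3a1 and Pdgfra), Lum lay below it in all and 3 lay on both sides. The mean of the 8 fibroblast markers, relative to array medians, was 1.12 to 1.72 in the arrays labelled DKO, 0.43 to 1.80 in Ets2KO, 0.13 to 0.76 in Ets1KO and 0.88 to 1.35 in WT. The mean of the 5 endothelial markers was -1.17 to -0.80, -0.53 to 0.13, -1.49 to -1.26 and -0.98 to 0.40 in the same order. The mean of the 2 adipocyte markers measured was -1.83 to -0.91 in the arrays labelled DKO, 0.31 to 3.64 in Ets2KO, -4.08 to -2.95 in Ets1KO and -3.44 to 2.23 in WT. The mean of the 5 leukocyte markers lay between -2.34 and -1.36 in all arrays and that of the 7 smooth muscle markers between -0.60 and 1.31. The part of the cell make-up in the results below was not tested. In such bulk RNA, fewer cells of a type and less RNA per cell cannot be told apart.

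Nfkbiz was high in the arrays labelled DKO and in WT cells and low in both single knockouts. Its brightest probe set, 1417483_at, read 10.83 and 11.39 in the arrays labelled DKO, 8.19, 9.11 and 8.81 in Ets2KO cells, 10.002, 9.87 and 9.31 in Ets1KO cells, and 11.64, 12.05 and 10.99 in WT cells, as deposited. The Ets1KO and Ets2KO arrays all lay below every array of the other groups, and the arrays labelled DKO overlapped WT. Relative to array medians the group means were 2.81 ± 0.41 in the arrays labelled DKO (SD, n = 2), -0.37 ± 0.48 in Ets2KO, 0.59 ± 0.38 in Ets1KO and 2.47 ± 0.54 in WT (SD, n = 3 each). From high to low the means ran DKO, WT, Ets1KO and Ets2KO on this scale, while as deposited DKO averaged 11.11 and WT 11.56. The first pair overlapped, and the lowest Ets1KO array, at 0.16, lay just above the highest Ets2KO array, at 0.06.

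The second Nfkbiz probe set, 1448728_a_at, read 9.30 and 10.13 in the arrays labelled DKO, 7.46, 8.22 and 7.75 in Ets2KO cells, 8.93, 8.92 and 8.65 in Ets1KO cells, and 10.82, 11.37 and 9.72 in WT cells. It followed the brightest probe set closely, with a correlation of 0.98 over the 11 arrays. The third, 1457404_at, read 8.53 and 8.45 in the arrays labelled DKO, 7.87, 8.69 and 8.09 in Ets2KO cells, 9.44, 8.13 and 9.25 in Ets1KO cells, and 8.73, 9.44 and 9.37 in WT cells. It did not separate the groups in the same way, since its Ets1KO arrays overlapped every other group. The correlation of this probe set with the others was as low as 0.66.

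Nfkbia showed the same order of group means relative to array medians. By 1420088_at, its brightest probe set, it read 13.19 and 13.37 in the arrays labelled DKO, 11.83, 12.33 and 12.04 in Ets2KO cells, 12.07, 12.52 and 12.43 in Ets1KO cells, and 13.72, 13.34 and 12.16 in WT cells. WT replicate 3 lay among the knockout arrays. Relative to array medians the means were 4.99 ± 0.13 in the arrays labelled DKO, 2.997 ± 0.26 in Ets2KO, 3.20 ± 0.23 in Ets1KO and 3.98 ± 0.84 in WT (SD over the same arrays). Ets1KO and Ets2KO overlapped each other and both overlapped WT, while the arrays labelled DKO lay above all others on this scale and inside the WT range as deposited. Probe sets 1438157_s_at, 1449731_s_at and 1448306_at read 10.71 to 11.76 in the arrays labelled DKO, 9.89 to 10.56 in Ets2KO, 10.18 to 11.28 in Ets1KO and 10.38 to 12.80 in WT cells. The dimmest, 1420089_at, read 8.33 and 8.75 in the arrays labelled DKO, 7.41, 7.73 and 7.21 in Ets2KO, 7.46, 7.83 and 7.75 in Ets1KO, and 8.92, 8.46 and 7.54 in WT cells. The 5 Nfkbia probe sets moved together, with pairwise correlations of 0.892 to 0.996 over the 11 arrays, and WT replicate 3 was the lowest WT array in all 5.

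Of the brightest probe sets, that of Tnfaip3 had the widest spread within Ets2KO and within WT. Its brightest probe set, 1433699_at, read 10.79 and 10.48 in the arrays labelled DKO, 6.40, 7.004 and 8.44 in Ets2KO cells, 8.63, 8.95 and 9.18 in Ets1KO cells, and 9.71, 10.67 and 8.02 in WT cells. Ets2KO replicate 3 and WT replicate 3 overlapped, so these groups did not separate. Relative to array medians the means were 2.34 ± 0.21 in the arrays labelled DKO, -1.79 ± 1.04 in Ets2KO, -0.22 ± 0.27 in Ets1KO and 0.38 ± 1.35 in WT (SD over the same arrays). The dimmer probe set, 1450829_at, read 6.06 and 6.12 in the arrays labelled DKO, 6.90, 6.51 and 7.13 in Ets2KO cells, 7.17, 7.45 and 7.77 in Ets1KO cells, and 7.99, 8.42 and 7.14 in WT cells. It was lowest in the arrays labelled DKO as deposited, opposite to the brightest probe set. Over the 9 arrays of the other groups these probe sets correlated at 0.92, and over all 11 at 0.35. Which of them reports the Tnfaip3 transcript in the arrays labelled DKO was not tested.

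**Figure D1:**
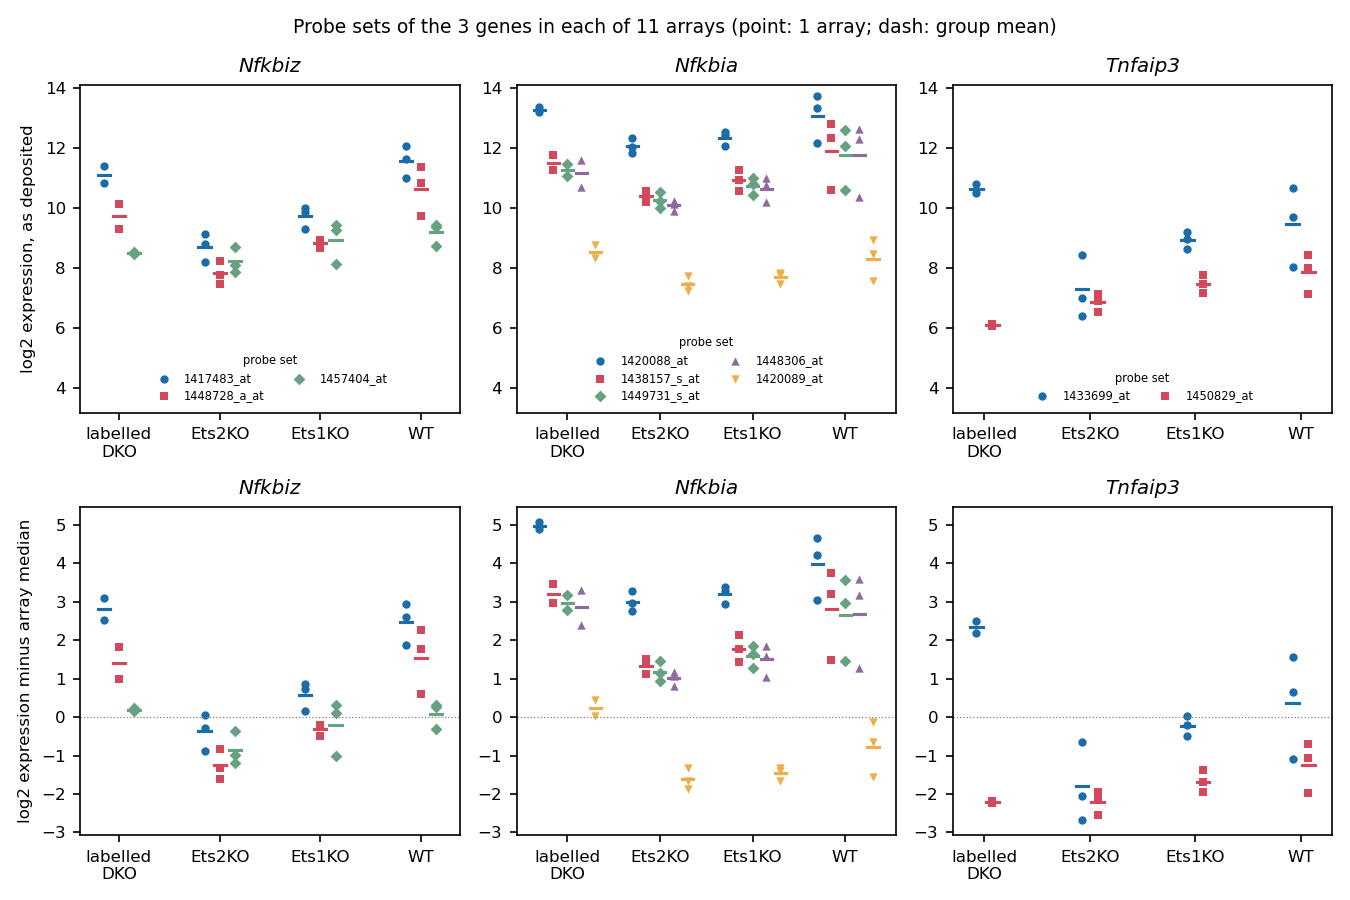
The log2 signal of each probe set is plotted on the y axis as deposited (top) and minus the array median (bottom), with the 4 groups on the x axis, a point for each array and a dash for the group mean. For the brightest Nfkbiz probe set, arrays labelled DKO and WT arrays sit at 10.83 to 12.05 as deposited, above the single knockouts at 8.19 to 10.002.

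Adding Cre and Ets2 loss to cells that lack Ets1 is the comparison that shares no array with the contrast in which Nfkbiz was noticed. The members and tests were still chosen with earlier results of these data known, so its calls are not free of that choice. Relative to array medians, 5 of the 10 probe sets were higher in the arrays labelled DKO than in Ets1KO cells and 0 were lower, where 21.8% of all probe sets were higher and 13.7% lower. The 5 were 2 of Nfkbiz, 2 of Nfkbia and the brightest of Tnfaip3, and the call here and below is a limma adjusted p below 0.05 over all 20523 probe sets. As deposited, 2 were called, Nfkbiz 1417483_at as higher, where 1.76% of all probe sets were, and Tnfaip3 1450829_at as lower, where 46% were. The other 4 probe sets called as higher relative to array medians stayed above 0 as deposited but did not pass.

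Nfkbiz 1417483_at was 2.23 higher relative to array medians (SE 0.38, adjusted p = 0.00267 with limma), a 4.68-fold difference, and 1.38 higher as deposited (adjusted p = 0.0142). Its second probe set was 1.73 higher (adjusted p = 0.0171) and 0.89 higher as deposited (adjusted p = 0.136). Nfkbiz 1457404_at gave 0.40 relative to array medians and -0.44 as deposited, a change of sign, and did not pass (adjusted p = 0.468). The brightest Nfkbiz probe set was above Ets1KO in both arrays labelled DKO and kept its call when any 1 of the 11 arrays was left out.

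Nfkbia 1420088_at was 1.79 higher relative to array medians (SE 0.40, adjusted p = 0.00907 with limma), a 3.45-fold difference, and 0.94 higher as deposited (adjusted p = 0.0761). The dimmest Nfkbia probe set, 1420089_at, was 1.70 higher (adjusted p = 0.00762). The other 3 gave 1.36 to 1.43 with adjusted p between 0.06 and 0.109. Both Nfkbia calls were lost without DKO replicate 2.

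Tnfaip3 1433699_at was 2.56 higher relative to array medians (SE 0.74, adjusted p = 0.0253 with limma), a 5.91-fold difference, and 1.72 higher as deposited (adjusted p = 0.0855). The call was lost in 5 of the 11 fits that leave out 1 array, namely any Ets1KO array or either array labelled DKO. The dimmer probe set gave -0.53 (adjusted p = 0.267) relative to array medians and -1.37 as deposited (adjusted p = 0.0103). An exact permutation test of 2 arrays against 3 cannot go below p = 0.1, the value that the called probe sets reached.

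**Figure D2:**
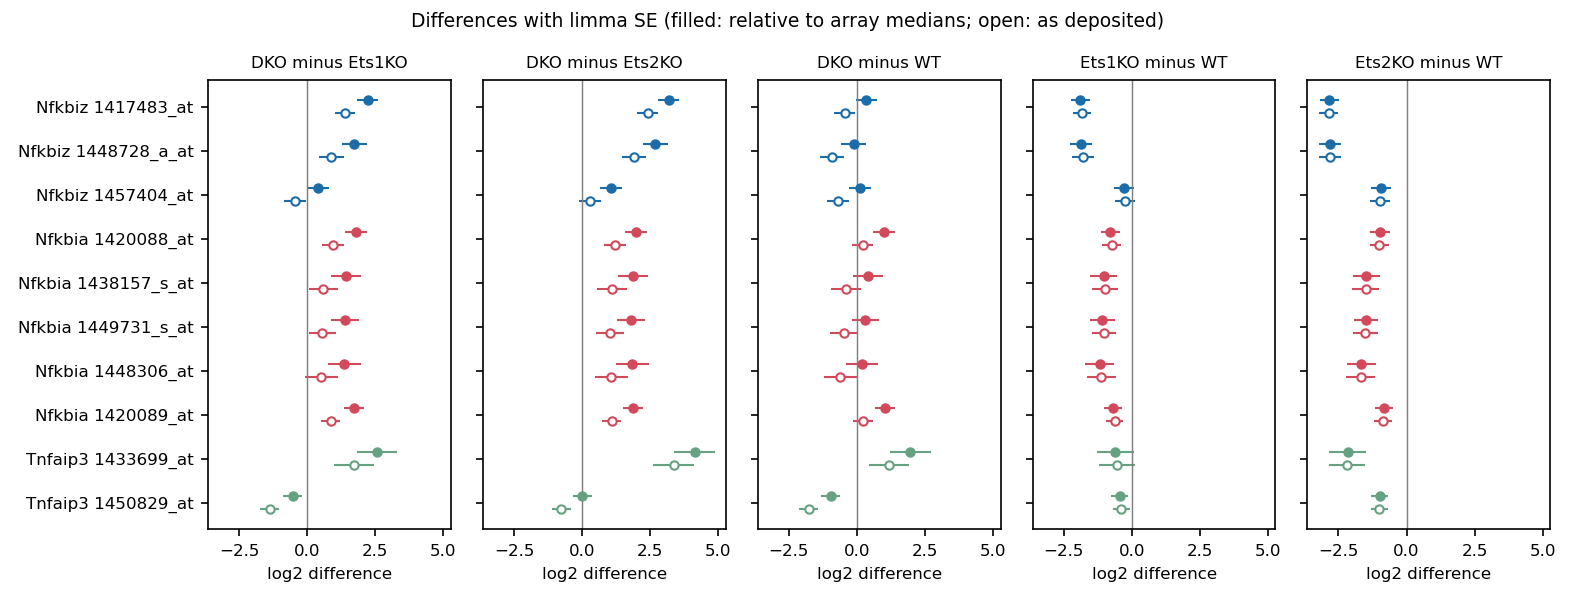
Each panel is 1 comparison, with the log2 difference on the x axis, the limma standard error as a bar and the 10 probe sets down the page, filled relative to array medians and open as deposited. All 10 differences lie below 0 in Ets1KO and in Ets2KO against WT, while against Ets1KO the arrays labelled DKO reach 2.56 for Tnfaip3 1433699_at and fall to -1.37 as deposited for 1450829_at.

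Adding Ets1 loss to cells that had lost Ets2 with Cre compares the arrays labelled DKO with Ets2KO cells and so shares the low Ets2KO arrays with the contrast behind the choice. It is therefore given as values, and nothing is read from its calls, which were 8 of the 10 probe sets as higher beside 20.2% of all probe sets, and 5 as deposited beside 3.12%. Nfkbiz 1417483_at gave a difference of 3.18 relative to array medians and 2.41 as deposited. Nfkbia 1420088_at gave 1.99 and 1.22. Tnfaip3 1433699_at gave 4.13 and 3.36, while its dimmer probe set gave 0.01 relative to array medians and -0.76 as deposited. These groups differ in the sex-like class. With that class in the fit, the differences of the brightest probe sets were 3.37 for Nfkbiz, 3.03 for Nfkbia and 4.56 for Tnfaip3. Within groups the class varies only in WT, so this adjustment rests on WT replicate 1 against the other WT arrays.

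The comparisons with WT cells share the WT arrays with the contrast behind the choice, which favours differences below 0. Against WT cells, 0 of the 10 probe sets passed in the arrays labelled DKO by limma, where 36% of all probe sets passed in either direction, and 4 of the 10 had an unadjusted p below 0.05, where 46.2% of all probe sets did. Nfkbiz 1417483_at gave a difference of 0.34 from WT on the relative scale and of -0.45 as deposited, a change of sign (adjusted p = 0.515 and 0.352). Nfkbia 1420088_at was 1.004 and 0.21 above WT (adjusted p = 0.0809 and 0.685). Tnfaip3 1433699_at was 1.97 and 1.17 above WT (adjusted p = 0.0663 and 0.221), and the dimmer 1450829_at gave -0.97 and -1.76 (adjusted p = 0.0574 and 0.00288), so the last passed as deposited, where 46% of all probe sets were lower. Single arrays weigh on these values. Without WT replicate 3 the differences of Nfkbiz, Nfkbia and Tnfaip3 were 0.05, 0.54 and 1.23 relative to array medians, and none of these passed. Without WT replicate 1 Nfkbia was 1.35 higher and passed (limma adjusted p = 0.027). Tnfaip3 passed without WT replicate 2, at 2.56 (adjusted p = 0.0287), and without Ets2KO replicate 3, at 1.97 (adjusted p = 0.0418).

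Ets1 loss alone, without Cre, gave differences below 0 in all 10 probe sets, where 51.9% of all probe sets lay below 0. The shared WT arrays favour that direction, and nothing is read from this count. None of the 10 passed by limma, where 0.00487% of all probe sets did, and 3 of the 10 had an unadjusted p below 0.05, where 9.03% of all probe sets did. Nfkbiz 1417483_at differed from WT by -1.88 in Ets1KO cells (SE 0.34, adjusted p = 0.221) and 1448728_a_at by -1.85 (SE 0.41, adjusted p = 0.3), with the arrays of both groups apart at each, where 10.7% of all probe sets were lower without overlap. Nfkbia 1420088_at differed by -0.78 (adjusted p = 0.566) and Tnfaip3 1433699_at by -0.60 (adjusted p = 0.827), with overlapping arrays. Without WT replicate 3, Nfkbiz 1417483_at differed by -2.18 and passed (adjusted p = 0.0483), and 2 of the 10 probe sets passed.

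Ets2 loss with Cre, the contrast that chose the genes, is given as values. Relative to array medians, Nfkbiz differed between Ets2KO and WT cells by -2.84, -2.81 and -0.94 over its 3 probe sets, Nfkbia by -0.84 to -1.66 over its 5, and Tnfaip3 by -2.16 and -0.98. All 10 values lay below 0, where 49.1% of all probe sets did, and 5 probe sets had Ets2KO arrays that did not overlap WT, where 13.6% of all probe sets were lower without overlap. The difference between the effect of Cre and Ets2 loss without Ets1 and its effect with Ets1 was 5.06 (SE 0.51) for the brightest Nfkbiz probe set, 2.77 (SE 0.54) for Nfkbia and 4.73 (SE 0.998) for Tnfaip3, and 4.24, 1.95 and 3.90 as deposited. It holds the choosing contrast and was not tested.

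Across arrays the 3 genes moved together as a description. Relative to array medians, Nfkbiz and Nfkbia correlated at 0.85 over the 11 arrays, Nfkbiz and Tnfaip3 at 0.84, and Nfkbia and Tnfaip3 at 0.88, by their brightest probe sets. Without the arrays labelled DKO the values over 9 arrays were 0.80, 0.77 and 0.75. All 31 pairs of probe sets from different members were above 0 over those 9 arrays, at 0.26 to 0.89. These arrays share the group differences above, and the correlations of deviations from the group means were 0.61, 0.55 and 0.64 for the brightest probe sets. Over the 31 pairs these ran from -0.36 to 0.82, and all 7 pairs with Nfkbiz 1457404_at were below 0.

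The genes whose pattern was most like each member's were ranked by Pearson correlation over the 11 arrays, each by its brightest probe set. For Nfkbiz they were Celf4, an RNA-binding protein (0.98), Tshz3 (0.92), Pdk3, a pyruvate dehydrogenase kinase (0.92), the hypoxia factor Hif1a (0.92) and the chemokine Ccl25 (0.91). Nfkbia had Map3k8, a kinase of inflammatory signalling (0.97), the sorting nexin Snx30 (0.95), the chemokine Ccl5 (0.93), the cytokine Lif (0.93) and the aminopeptidase Xpnpep1 (0.93). Tnfaip3 had Hps1 (0.96), the lysophosphatidic acid receptor Lpar6 (0.94), the amino acid transporter Slc7a2 (0.94), caveolin Cav1 (0.93) and the signal peptidase subunit Spcs3 (0.92). Ranked by likeness to Nfkbiz, Nfkbia was gene 35 and Tnfaip3 gene 48 of 11014. As deposited the correlations of these 15 genes were 0.74 (Snx30) to 0.92, with Celf4 at 0.87. Without the arrays labelled DKO, 3 of the 15 stayed within the first 5, and Xpnpep1 went to place 76.

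The rest of the pathway was read from lists that were chosen with earlier results known, each gene by its brightest probe set. Between the arrays labelled DKO and Ets1KO cells, 22.4% of all genes were higher and 10.3% lower relative to array medians, and the median gene differed by 0.25, or -0.59 as deposited, where 1.81% of all genes were higher and 43.2% lower. Of 5 NF-kappa-B subunits 3 were measured, of which 0 were higher and 2 lower. Rela, the main activating subunit, differed by -0.99 (limma adjusted p = 0.00228) and by -1.84 as deposited. Nfkb2, the subunit of the non-canonical branch, differed by -1.88 (adjusted p = 0.00627) and by -2.72 as deposited, although its second probe set gave -0.11.

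Of the other IkappaB proteins, 3 were measured and 1 was higher, Bcl3, a nuclear member like Nfkbiz (1.17, adjusted p = 0.0188 with limma, and 0.33 as deposited). Among 13 further feedback and ubiquitin-editing genes 6 were higher and 0 lower, with a median of 0.57, but as deposited 0 were higher and 5 lower, with a median of -0.27. Zc3h12a, the RNase Regnase-1, was 1.67 higher and 0.83 higher as deposited (adjusted p = 0.00728 and 0.0797). Rnf11, part of the A20 complex, was 1.42 and 0.58 higher (adjusted p = 0.00307 and 0.0997), with 1.19 and 0.12 at its other probe sets. Tnip1, an A20-binding inhibitor, was 0.87 higher (adjusted p = 0.0221) and 0.02 as deposited. Tax1bp1, Itch and Tank were called as higher relative to array medians by 0.67, 0.61 and 0.57, but gave -0.17, -0.23 and -0.27 as deposited.

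Among 20 kinases and adaptors 5 were higher and 2 lower, with a median of 0.26, which is close to the median gene. As deposited 1 was higher and 11 lower, with a median of -0.58. The largest were Traf6, a ubiquitin ligase below interleukin-1 receptors (1.35, adjusted p = 0.000716 with limma, but -0.09 at its other probe set), Birc2 (1.26, adjusted p = 0.00147) and Tab2 (1.15, adjusted p = 0.00131). Of 9 receptors 2 were higher and 3 lower, and as deposited 0 were higher and 4 lower. Tnfrsf12a, the TWEAK receptor, differed by -2.35 (adjusted p = 0.0154 with limma), and Ltbr, the lymphotoxin receptor, by -1.42 (adjusted p = 0.00216). Tnfrsf1b, the second tumour necrosis factor receptor, was 1.37 higher at its brightest probe set (adjusted p = 0.00689) and gave -0.80 at the other. Of the 9 ligands listed, tumour necrosis factor among them, 0 were among the genes measured.

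Downstream, 14 NF-kappa-B target genes of endothelium were measured, of which 2 were higher and 0 lower, beside 22.4% and 10.3% of all genes. Of the 14, 12 lay above 0 and the median was 0.84, where 36.1% of all genes lay below 0. As deposited 2 were higher and 1 lower, with a median of -0.0024. The cyclooxygenase Ptgs2 was 3.88 and 3.04 higher (limma adjusted p = 0.00704 and 0.0134) and the chemokine Ccl5 2.55 and 1.70 higher (adjusted p = 0.00276 and 0.0105). Of 4 genes known in macrophages and fibroblasts to need IkappaB-zeta, Lcn2, the secreted protein lipocalin-2, was the 1 measured and was 6.33 and 5.49 higher (adjusted p = 0.0195 and 0.0256). Its arrays averaged 12.38 ± 1.06 in the arrays labelled DKO and 6.89 ± 2.05 in Ets1KO cells, as deposited. Among 16 immediate-early genes 4 were higher and 1 lower, and as deposited 1 was higher and 4 lower. The phosphatase Dusp1 was 2.22 higher (adjusted p = 0.0443), Egr2 2.12 higher (adjusted p = 0.0217) and Maff 2.00 higher (adjusted p = 0.000579), with 1.38, 1.28 and 1.16 as deposited.

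The mean of the 14 target genes relative to array medians was 0.90 and 0.43 in the arrays labelled DKO, -0.36, -0.12 and -0.56 in Ets2KO, -0.86, -0.93 and -0.58 in Ets1KO, and 1.69, 0.81 and -0.70 in WT. WT replicate 3 again lay among the single knockouts, as it did for Nfkbia and Tnfaip3. In Ets1KO cells against WT cells 13 of the 14 lay below 0 with a median of -1.25 and 0 passed by limma, beside 54.9% of all genes below 0 and 0.00908% called as lower. There Ccl2 differed by -4.31 and Ccl7 by -3.17 (adjusted p = 0.453 and 0.473). In Ets2KO cells against WT cells 11 of the 14 lay below 0 with a median of -0.41, beside 49.7% of all genes.

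**Figure D3:**
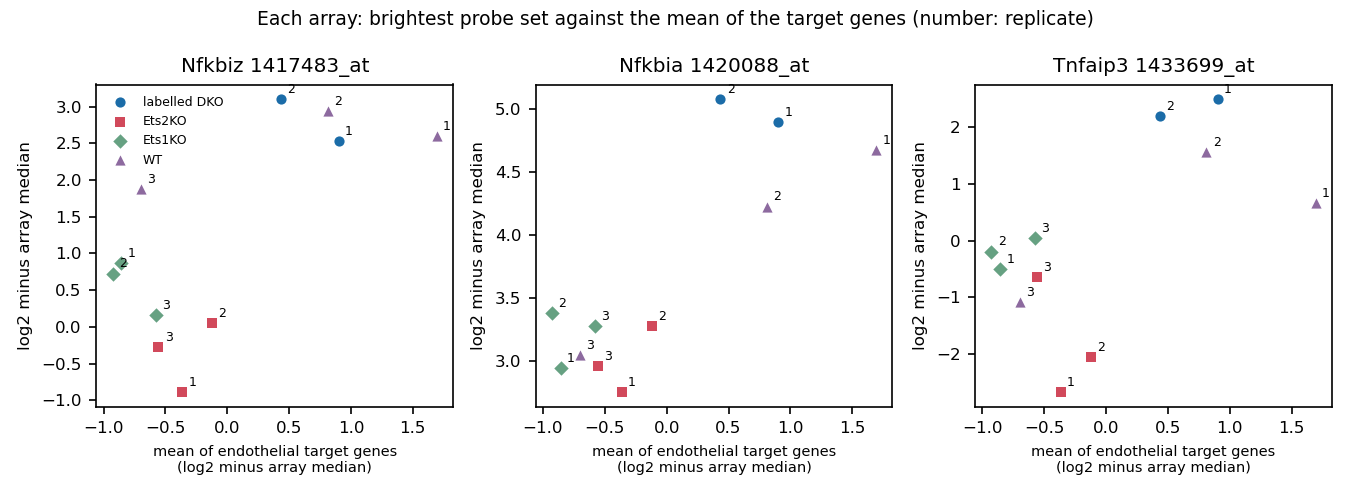
The brightest probe set of each gene (y axis) is set against the mean of the 14 target genes (x axis), both as log2 minus the array median, with a point for each of the 11 arrays and its replicate number. WT replicate 3, with a target mean of -0.70, lies among the single knockout arrays for Nfkbia and Tnfaip3 and above them for Nfkbiz.

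Against WT cells the arrays labelled DKO had 1 of the 14 target genes higher, Ptgs2 (2.96, limma adjusted p = 0.0218, and 2.16 as deposited, with 1.23 and adjusted p = 0.219 at its second probe set), where 20.7% of all genes were higher. Rela and Nfkb2 were lower there by the same call, at -1.18 and -1.96 (adjusted p = 0.00103 and 0.00485), where 11% were lower. The second Nfkb2 probe set gave -0.25 against WT cells (adjusted p = 0.319) and -0.16 against Ets2KO cells (adjusted p = 0.547). Against Ets2KO cells Rela and Nfkb2, by their brightest probe sets, differed by -1.10 and -1.26 (adjusted p = 0.00136 and 0.0326), and Ptgs2 by 6.86 (adjusted p = 0.000454), where 12.3% of all genes were lower and 20.6% higher. Of the target genes, Ccl5 was also called there as higher, by 2.61, and Tnfaip2 as lower, by -2.84 (limma adjusted p = 0.00242 and 0.0233). These comparisons share the arrays labelled DKO with each other.

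**Figure D4:**
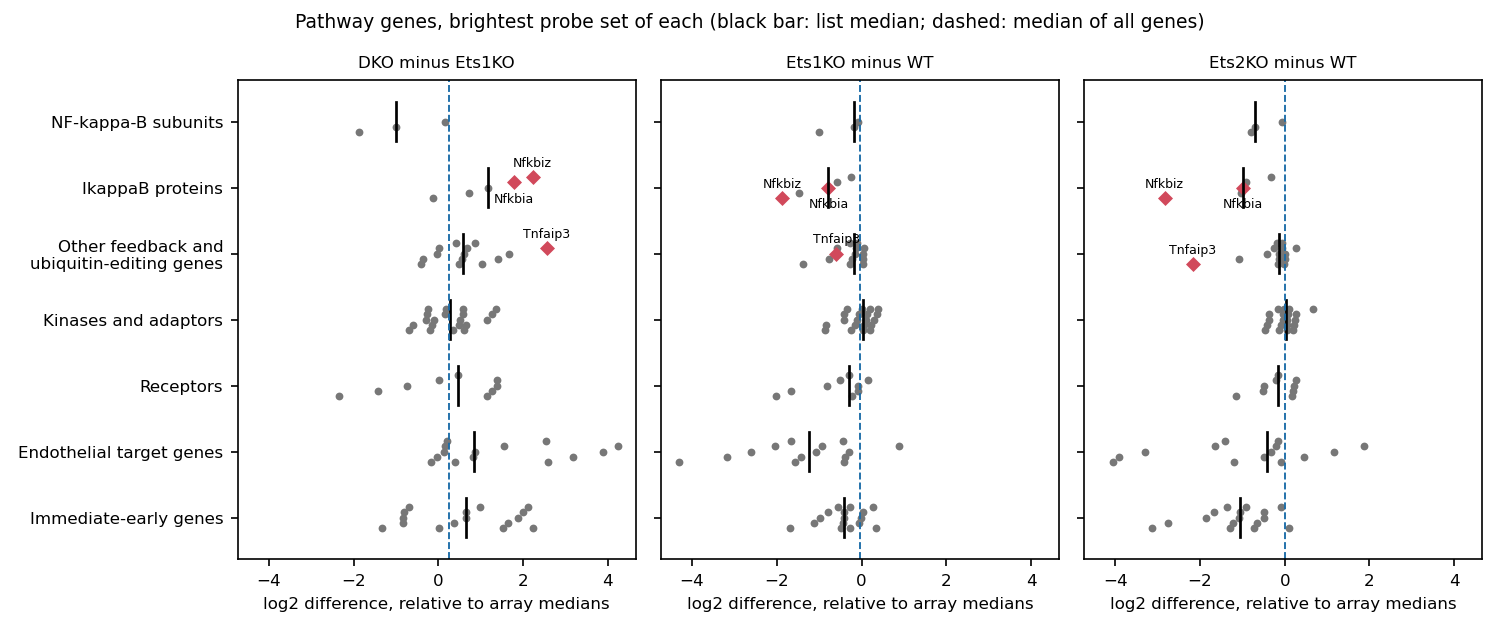
Each point is a gene, by its brightest probe set, on a log2 difference axis relative to array medians, with lists down the page, black bars for list medians and a dashed line for the median of all genes. Nfkbiz, Nfkbia and Tnfaip3 (diamonds) lie at 2.23, 1.79 and 2.56 in the arrays labelled DKO against Ets1KO, right of their list medians of 1.17, 1.17 and 0.59. These list medians include the members, and without them they are 0.73 for the IkappaB proteins and 0.57 for the list that holds Tnfaip3.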

How the data were processed

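RNA of 12 samples was measured on Affymetrix mouse arrays from 2 ug of total RNA each. The deposited values are log2 expression per probe set, made with RMA per the submitters' processing notes, which name no version. In 20521 of 20523 probe sets the last DKO column is the average of its companions within 1e-05, so 11 arrays were analysed, and their small number limits the precision. Each array's median was subtracted, and the values as deposited were analysed beside these. Of the probe sets 18824 carry 1 gene symbol in the platform annotation, 549 several and 1150 none. A linear model with 4 group means was fitted to all probe sets by lmFit and eBayes of limma 3.58.1 under R 4.3.3, which had 7 residual and 2.22 prior degrees of freedom. Benjamini-Hochberg adjustment ran over 20523 probe sets within each comparison, and an adjusted p below 0.05 was a call. Fits were tested on simulated data. Lists used the probe set with the highest mean of each of 11015 genes. The members, lists and tests were chosen with earlier results of these data known.

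The text names all member probe sets, Ets1 and Ets2, and the 5 genes that correlate best with each member. From each pathway list it names up to 3 called genes with the largest differences between the arrays labelled DKO and Ets1KO. For the other comparisons only some of the list genes are named, among them Ccl2 and Ccl7 where none was called. Tnip1, Tax1bp1, Itch and Tank were named after their values were seen. Between the arrays labelled DKO and Ets1KO, 0 of 5 endothelial, 8 fibroblast, 7 smooth muscle and 2 adipocyte markers measured were called, and of 5 leukocyte markers Csf1r and Cd3e were higher relative to array medians, while as deposited 2 endothelial, 1 smooth muscle and 2 leukocyte markers were lower. Motifs were searched and figures drawn in Python 3.11.15 with matplotlib 3.10.9.

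Alternatives were the values as deposited, quantile normalization, 12 arrays, only the groups compared, the replicate number or the sex-like class in the model, 1 probe set or the mean per gene, a filter on dim probe sets, array weights, an intensity trend and leaving out each array.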

Additional observations from a re-analysis of the deposited data

Results flagged for a closer look

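For the brightest Nfkbiz probe set, 1417483_at, every array labelled DKO lay above every Ets1KO array and every Ets2KO array lay below every WT array, so the arrays lay in opposite orders without and with Ets1. Likewise every array labelled DKO lay above every Ets2KO array, and every Ets1KO array lay below every WT array. The difference between these effects was 5.06 on the log2 scale relative to array medians. The second Nfkbiz probe set, 1448728_a_at, had the same orders, with 4.54. For Nfkbia, probe sets 1448306_at and 1449731_s_at had the arrays labelled DKO above Ets1KO relative to array medians and the Ets2KO arrays below WT, with 3.02 and 2.87. Neither passed between the arrays labelled DKO and Ets1KO (limma adjusted p = 0.109 and 0.06), and as deposited those groups overlapped at 1448306_at. None of these differences was tested, since they hold the contrast that chose the genes. Of all probe sets, 13.6% had Ets2KO below WT without overlap and 10.7% had Ets1KO below WT without overlap. The share of all probe sets with both opposite orders was not counted, so nothing is read from these orders.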

How the results depend on the processing

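Of the 10 member probe sets, 5 were called between the arrays labelled DKO and Ets1KO, beside 35.4% of all probe sets in either direction. The count was 2 as deposited and 8 with only these groups in the fit, beside 47.8% and 32.1%. By gene it was 3 of 3 by the brightest probe set and 2 of 3 by the mean, beside 31.5% and 28.9% of all genes. Leaving out 1 array gave 1 to 8, with 1 without DKO replicate 2, 3 without Ets1KO replicate 3 and 8 without WT replicate 3. Against Ets2KO, where the choice of the genes favours calls, the 8 became 5 as deposited, 4 with the sex-like class, 3 of 3 genes by either summary, and 5 to 8 with 1 array left out, the 5 without Ets2KO replicate 1, DKO replicate 1 or DKO replicate 2. Against WT the 0 calls became 1 as deposited, with quantile normalization and with array weights, 2 with the sex-like class, 4 with 12 arrays and 0 to 2 with 1 array left out. In the same comparison the share of all probe sets called in either direction was 48.8% as deposited, 32.2% with quantile normalization and 31.7% with array weights. It was 28.5% with the sex-like class and 46.9% with 12 arrays, so the member counts of these fits did not exceed it. Nfkbiz turned to -0.45 as deposited against WT. Between Ets1KO and WT 0 calls became 2 with array weights and 0 to 2 with 1 array left out, the 2 without WT replicate 3. Over all probe sets that comparison had 1 call, 289 with array weights, 13 with 12 arrays and 1 to 72 with 1 array left out. For DKO against Ets2KO 32.1% of all genes were called by the brightest probe set and 29.8% by the mean. Over all probe sets 7215 calls there (35.2%) became 10019 (48.8%) as deposited and 981 (4.78%) with the sex-like class. Within groups that class varies only in WT, so every fit with it rests on WT replicate 1. Between DKO and WT 7389 became 4093 with only these groups in the fit.

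The median of the 10 differences between Ets2KO and WT, -1.48, became -2.40 with the sex-like class, -2.16 by the brightest probe sets and -2.11 to -1.09 with 1 array left out. The median of the differences between the 2 effects of Cre with Ets2 loss, 2.89, became 2.07 as deposited, 3.81 with the sex-like class, 4.73 by the brightest probe sets and 2.43 to 3.52 with 1 array left out. Deviations from the group means of same-numbered arrays in different groups correlated at -0.31 to 0.10 (15 pairs). For differently numbered arrays the range was -0.19 to 0.31. The deviations of the 2 arrays labelled DKO mirror each other by construction. The check thus cannot decide whether the numbers pair the samples, and the main fit assumed no pairing. With the replicate number as a block, the calls were 4 against Ets1KO, 5 against Ets2KO, 0 against WT and 0 for Ets1KO against WT. The shares of all probe sets called in these fits were 30.9%, 30.2%, 31.7% and 0.00487% in the same order. The cause of these changes was not tested. Between the 2 arrays labelled DKO and WT, Tnfaip3 1433699_at did not pass at 1.97 relative to array medians (SE 0.74, limma adjusted p = 0.0663). A probe set that did not pass is thus not shown to be unchanged.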
